A study of Mus musculus with 18 samples.

Results

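Among the most abundant miRNAs of these mouse tumors and adrenal glands were the miR-7 and miR-375 families, which are known for their enrichment in endocrine and neuroendocrine cells. The 5 mature miRNAs described were mmu-miR-7a-5p, mmu-miR-7b-5p, mmu-miR-7a-1-3p, mmu-miR-7a-2-3p and mmu-miR-375-3p, given without the prefix for mouse from here on, out of 1966 mature miRNAs in the deposited table. They were selected by name, from a list drawn up with the levels of these same libraries known. Their levels and group differences are thus among the values they were chosen by, and are given as a description without p-values.

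Small RNA had been sequenced from 3 groups. AG were 3 adrenal glands from animals labelled CRE -, that is without the Cre driver. Whether they carried a transgene allele is not given in the labels, while the paper describes its AG adrenal glands as wildtype. TI were 7 IGF2BP1 tumors, of which 6 were labelled IGF2BP1 +/+, CRE + (1 of them taken as tumor adrenal gland) and 1 IGF2BP1 +/-, CRE +. TIM were 8 tumors labelled IMP1/MYCN, CRE +, with IMP1 another name of IGF2BP1, and comprised 5 tumors without a stated site, 2 of the adrenal gland and 1 of the spine. Per the study's methods, both transgenes sat in the Rosa26 locus behind a loxP-flanked stop cassette, IGF2BP1 lacked its 3′ untranslated region, and an iCre under the Dbh promoter removed the cassette in noradrenergic cells of the sympatho-adrenal lineage. Age is not given in the labels. The paper reports a shorter median survival for IGF2BP1/MYCN mice than for homozygous IGF2BP1 mice. Age may therefore differ between TIM and TI, where it cannot be told apart from genotype. The paper also reports that its IGF2BP1/MYCN mice lacked the wildtype Rosa26 locus. With both transgenes in that locus, TIM tumors would carry fewer IGF2BP1 alleles than the TI tumors labelled IGF2BP1 +/+. The TIM labels do not give the number of alleles. TIM and TI may thus differ in IGF2BP1 dose as well as in MYCN, and these cannot be told apart here. Since only miRNAs were counted, the transgenes themselves could not be checked in these libraries. The columns gave the group but not the individual sample, so that the heterozygous, adrenal and spinal tumors cannot be picked out. Libraries are named TI-a, TI-b and so on by their order in the table, and these letters stand for no particular mouse.

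In biogenesis, a hairpin precursor is cut into a duplex whose strands are called 5p and 3p. One strand is usually kept in the silencing complex, where bases 2 to 8, the seed, pair with target mRNAs, while the other strand is mostly degraded. miR-7 is concentrated in pancreatic islets, pituitary and parts of the brain, where secretory cells release hormones or transmitters. miR-375 is best known from the insulin-producing cells of the pancreatic islet, where it restrains insulin secretion, and it also marks other neuroendocrine cells and their tumors.

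The mature strands of the miR-7 hairpins are shown to make clear which reads could be told apart. Sequences are from RefSeq (GRCm38.p6), read 5′ to 3′, with the seed in capitals, and 4 of the 5 members had an entry.
miR-7a-5p: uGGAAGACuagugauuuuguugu
miR-7b-5p: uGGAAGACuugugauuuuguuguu
miR-7a-1-3p: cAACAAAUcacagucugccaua
miR-7a-2-3p: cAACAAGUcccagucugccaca
miR-7b-3p: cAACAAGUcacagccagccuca

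Both 5p strands carried the seed GGAAGAC, which no other mature miRNA of the table with a RefSeq sequence shared. Counted from 1 at the 5′ end of miR-7a-5p, they differed by A10U over 23 compared positions, so that a single base tells their reads apart. The 3p strands of miR-7a differed from each other by A7G, A10C and U21C. A7G lies in the seed. Among the miRNAs of the table with a RefSeq sequence, miR-7a-1-3p alone carried the seed AACAAAU, whereas miR-7a-2-3p shared AACAAGU with miR-7b-3p.

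These strands come from 3 hairpins on different chromosomes. The sequence of miR-7a-5p is encoded both by Mir7-1, at chr13:58392841-58392863 on the minus strand, and by Mir7-2, at chr7:78888295-78888317 on the plus strand (both GRCm38.p6), and its reads cannot be assigned to either. The 3p strands can, since miR-7a-1-3p comes from Mir7-1 alone (chr13:58392800-58392821) and miR-7a-2-3p from Mir7-2 alone (chr7:78888335-78888356). miR-7b-5p is encoded by Mir7b (chr17:56243017-56243040, plus strand). In the GENCODE annotation of GRCm39, Mir7-1 lies within an intron of Hnrnpk, which encodes a nuclear RNA-binding protein, on the same strand. Mir7-2 overlaps an exon of the long non-coding RNA gene Gm57212, and Mir7b lies in no annotated gene, with Fem1a the nearest coding gene at 13712 bp. The hairpin of miR-375-3p, Mir375 (chr1:74900658-74900721, minus strand, GRCm38.p6), overlaps an exon of the long non-coding RNA gene Gm70968 and lies 1350 bp from Cfap65, the nearest coding gene.

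Depth did not limit the abundant members. The libraries held 11641696 to 23435621 reads on miRNAs, recovered from the deposited TMM-scaled CPM (counts scaled to a common library size and divided by the library's TMM factor, a correction for differences in composition). In each library 3 reads corresponded to between 0.101 and 0.272 CPM. miR-148a-3p took 4.19% to 6.94% of the reads in AG, but 2.29% to 61.9% in TI and 6.53% to 44.2% in TIM, and since all levels are relative, the scaling of the remaining miRNAs bears on every group difference below. Of the markers of other cell types, those of the exocrine pancreas (miR-216a-5p, miR-216b-5p and miR-217-5p) separated 2 tumor libraries from the others. Their sum was 51.1 to 73.7 CPM in AG, 74.6 CPM in TI-e and 155.6 CPM in TIM-d, but 0 to 9.59 CPM in the other 13 tumor libraries. The skeletal muscle markers (miR-1a-3p, miR-133a-3p and miR-206-3p) set TIM-a apart. Their sum was 22972 CPM there, against a TIM median of 140 CPM and at most 344 CPM in TI. The neuronal miRNA miR-9-5p stood at 3748 CPM in TI-e and 7599 CPM in TIM-d, against 362, 524 and 582 CPM in AG. TI-e was the lowest TI library for miR-9-5p (TI median 6478 CPM) and for miR-9-3p, miR-124-3p, miR-137-3p, miR-138-5p and miR-488-3p. Among the other neuron-enriched miRNAs listed, miR-128-3p, miR-153-3p, miR-218-5p and miR-383-5p were lowest in another TI library. It also had the highest TI sum of the smooth muscle markers miR-143-3p and miR-145a-5p, with 171131 CPM against 121198 to 209015 CPM in AG. TI-e likewise had the highest TI sum of the liver and intestine markers and of the erythroid markers. The erythroid sum was 3721 CPM in TI-e, against 536 to 1942 CPM in AG. For the leukocyte, stratified epithelium and skeletal muscle markers another TI library was highest.

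miR-7a-5p was one of the top miRNAs of each tissue. It amounted to 2.08% to 18.3% of all miRNA reads, ranked between 1 and 10 in each of the 18 libraries and within the top 5 in 15 of them. In AG, miR-7a-5p stood at 35994, 81124 and 65879 CPM. In TI it ranged from 24302 CPM in TI-d over a median of 49988 to 207810 CPM in TI-e, and in TIM from 31408 CPM in TIM-f over a median of 72473 to 211250 CPM in TIM-g. Tumors lay on both sides of the adrenal glands, with 2 of 7 TI and 3 of 8 TIM libraries above all AG and 3 TI and 1 TIM library below. The log2 fold change was -0.09 ± 0.65 (SE) in TI and 0.39 ± 0.63 in TIM, both relative to AG, and 0.48 ± 0.48 between TIM and TI, each about the size of its error or smaller. Without TI-e and TIM-d it was -0.41 in TI, and leaving out a single library turned the sign in TI in 5 of 10 cases.

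miR-7b-5p, the product of the third hairpin, followed miR-7a-5p at a lower level. It stood at 4515, 9070 and 8110 CPM in AG. In TI the lowest, median and highest levels of miR-7b-5p were 2503, 5050 and 25482 CPM, and in TIM 2305, 8036 and 15564 CPM. The highest values were again in TI-e and TIM-g, and the groups overlapped throughout, with log2 fold changes of -0.29 ± 0.62 in TI and -0.03 ± 0.61 in TIM, relative to AG, and 0.26 ± 0.46 between TIM and TI. Without TI-e and TIM-d it was -0.65 in TI. miR-7b-5p made up 10.1% to 11.1% of the reads of both 5p strands in AG, 5.60% to 13.3% in TI and 6.46% to 13.3% in TIM. Its share lay below that of all AG libraries in 4 of 7 TI and 6 of 8 TIM libraries, and above it in 2 TI and 1 TIM library. The sum of both strands spanned 27433 to 233293 CPM among the TI libraries.

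**Figure D1:**
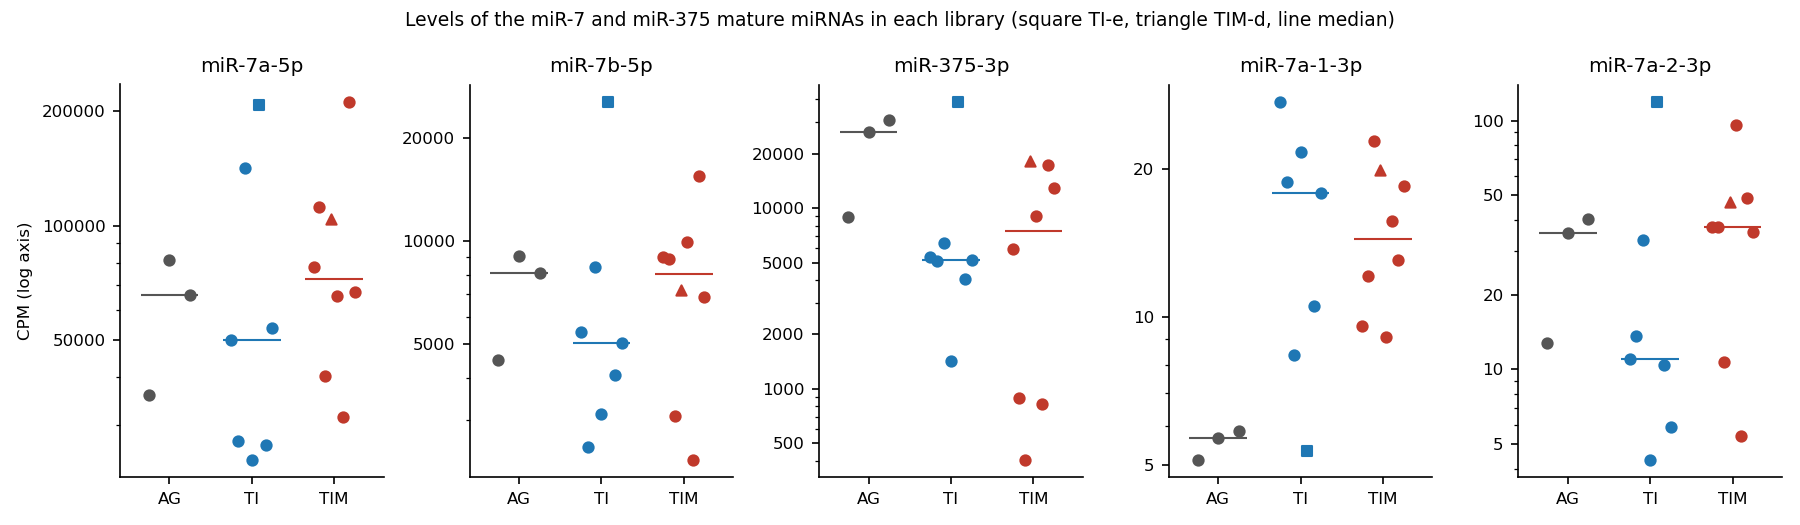
CPM of the 5 members (log axes, a separate range for each) in 3 AG, 7 TI and 8 TIM libraries, with 1 point for each library and a line at the group median; TI-e is drawn as a square and TIM-d as a triangle. miR-7a-5p and miR-7b-5p overlapped between all groups, 6 of 7 TI libraries lay below all AG libraries for miR-375-3p, and all 8 TIM libraries lay above all AG libraries for miR-7a-1-3p.

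miR-375-3p was the member with the widest range. It stood at 8915, 26553 and 30587 CPM in AG, with AG-a the low library. In TI its lowest, median and highest levels were 1427, 5166 and 38518 CPM, and in TIM 405, 7471 and 18143 CPM. In TI, 6 of 7 libraries lay below all AG libraries and TI-e lay above all of them. Of the TIM libraries 4 of 8 lay below all AG libraries and none above, and the 8 tumors spread over a 44.7-fold range, with TIM-b, TIM-c and TIM-f at 893, 405 and 828 CPM. The log2 fold change of miR-375-3p was -1.75 ± 1.13 for TI against AG and -2.27 ± 1.11 for TIM against AG. Between the tumor types it was -0.52 ± 0.85, and 0.04 when CPM were taken without the TMM factor.

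The highest miR-375-3p level of each tumor type fell in the library with the exocrine pancreas miRNAs, namely 38518 CPM in TI-e and 18143 CPM in TIM-d. The exocrine pancreas surrounds the islets, in which miR-375 and miR-7 are abundant. Over the 15 tumors, log2(CPM + 1) of miR-375-3p and of the marker sum had a Pearson's r of 0.41, or 0.22 without TI-e. In TI r was 0.74, or -0.54 without TI-e, and in TIM it was 0.31. All 3 markers were detected in each AG library. Without TI-e and TIM-d, an alternative chosen after seeing the data that also removes the top miR-375-3p library of each tumor type, the log2 fold change was -2.21 for TI against AG and -2.59 for TIM against AG. miR-375-3p was present without these markers too. In TI-a, which had no read of the 3 markers (up to 0.219 CPM each would remain undetected), it stood at 5389 CPM, and in TIM-g and TIM-h, with marker sums of 4.51 and 0.418 CPM, at 17424 and 12894 CPM. The part of pancreatic tissue in the levels of AG, TI-e and TIM-d was not tested. Likewise, fewer cells of a type and less miRNA per cell cannot be told apart in these bulk samples.

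**Figure D2:**
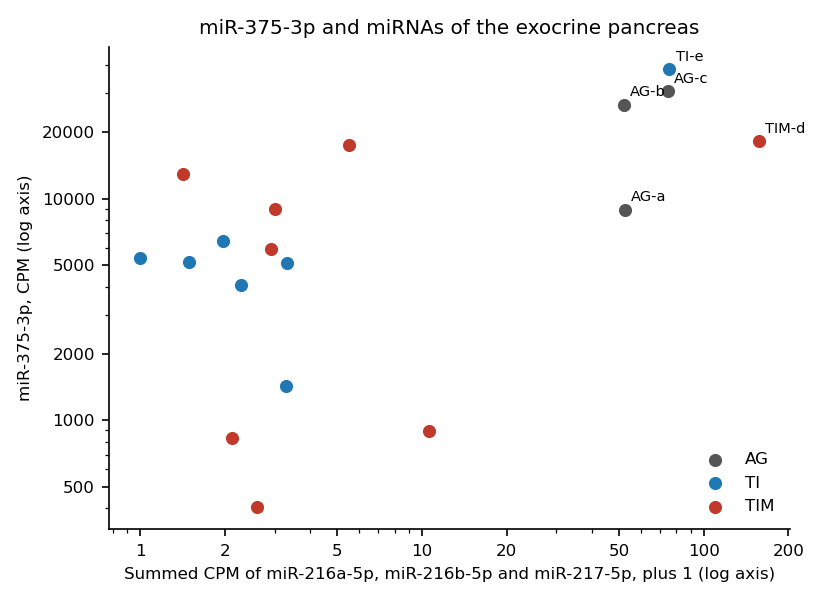
miR-375-3p (CPM, log axis) against the summed CPM plus 1 of 3 exocrine pancreas miRNAs (log axis), with 1 point for each library, grey for AG, blue for TI and red for TIM. The 3 AG libraries, TI-e and TIM-d lie at marker sums of 51.1 to 155.6 CPM, and the other 13 tumor libraries at 9.59 CPM or less, where miR-375-3p ranged from 405 to 17424 CPM.

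A ratio of reads within a library does not depend on how libraries are scaled. For each miR-375-3p read there were 2.15 to 4.04 miR-7a-5p reads in AG, 5.32 to 22.0 in TI and 5.20 to 125.2 in TIM, so that all 15 tumors lay above all adrenal glands. TI-e, with the highest levels of both among TI, was no exception. This ratio was looked at after the levels were known. Of the 725 other miRNAs that passed the filter on low values, 10.5% gave such a separation when set against miR-7a-5p in the same way.

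The 3p strands of miR-7a are the passenger strands, and both were rare. There were 623 to 3422 miR-7a-5p reads for each read of the 2 strands together in the 15 tumors and 1428 to 2012 in AG. They are nevertheless the only members that tell the hairpins Mir7-1 and Mir7-2 apart, and they did not move together. miR-7a-1-3p, from Mir7-1, stood at 5.13, 5.69 and 5.88 CPM in AG, close to each other. Its lowest, median and highest levels were 5.34, 17.8 and 27.3 CPM in TI and 9.11, 14.4 and 22.7 CPM in TIM. All 8 TIM libraries and 6 of 7 TI libraries lay above all AG libraries, and the exception was TI-e. The log2 fold change of miR-7a-1-3p was 1.18 ± 0.42 in TI and 1.23 ± 0.42 in TIM, relative to AG, and 0.05 ± 0.32 between TIM and TI. Of all 726 miRNAs that passed the filter, 21.1% had all TIM libraries above all AG libraries. With 95 to 495 reads for each library, counting error was small beside the differences between libraries.

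miR-7a-2-3p, from Mir7-2, behaved like the 5p strands instead. It stood at 12.8, 35.2 and 40.3 CPM in AG. In TI its lowest, median and highest levels were 4.35, 11.04 and 118.3 CPM, and in TIM 5.39, 37.4 and 95.7 CPM. TI-e was again the highest TI library, 4 of 7 TI and 2 of 8 TIM libraries lay below all AG libraries, and the groups overlapped. The log2 fold change of miR-7a-2-3p was -0.75 ± 0.85 in TI relative to AG, or -1.23 when TI-e and TIM-d were left out. In TIM it was 0.20 ± 0.84 relative to AG, and 0.95 ± 0.64 relative to TI.

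The balance of the 2 strands differed widely between tumors. miR-7a-1-3p made up 28.7% (95% Wilson interval 24.4 to 33.4), 13.9% (11.8 to 16.3) and 12.7% (10.8 to 15.0) of the reads of both strands in AG. In TI its share ranged from 4.32% in TI-e (3.56 to 5.23) over a median of 58.0% to 83.3% in TI-d (79.5 to 86.5), and in TIM from 8.70% in TIM-e (7.62 to 9.90) over a median of 27.1% to 74.4% in TIM-f (70.2 to 78.2). These intervals cover counting error only, and they were narrow beside the spread between tumors of one group. The share exceeded that of all AG libraries in 5 of 7 TI and 4 of 8 TIM libraries, and was below it in TI-e and TIM-e. In the 5 libraries with the highest shares, TI-d, TI-g, TIM-f, TI-a and TIM-c (83.3%, 75.1%, 74.4%, 71.2% and 67.9%), miR-7a-5p stood at 24302, 54041, 31408, 49988 and 40393 CPM. In TI-e and TIM-g, the libraries with the most miR-7a-5p among TI and TIM (207810 and 211250 CPM), the share was 4.32% and 21.1%. A low share also occurred at lower levels of miR-7a-5p, with 28.7% in AG-a at 35994 CPM and 8.70% in TIM-e at 65278 CPM.

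**Figure D3:**
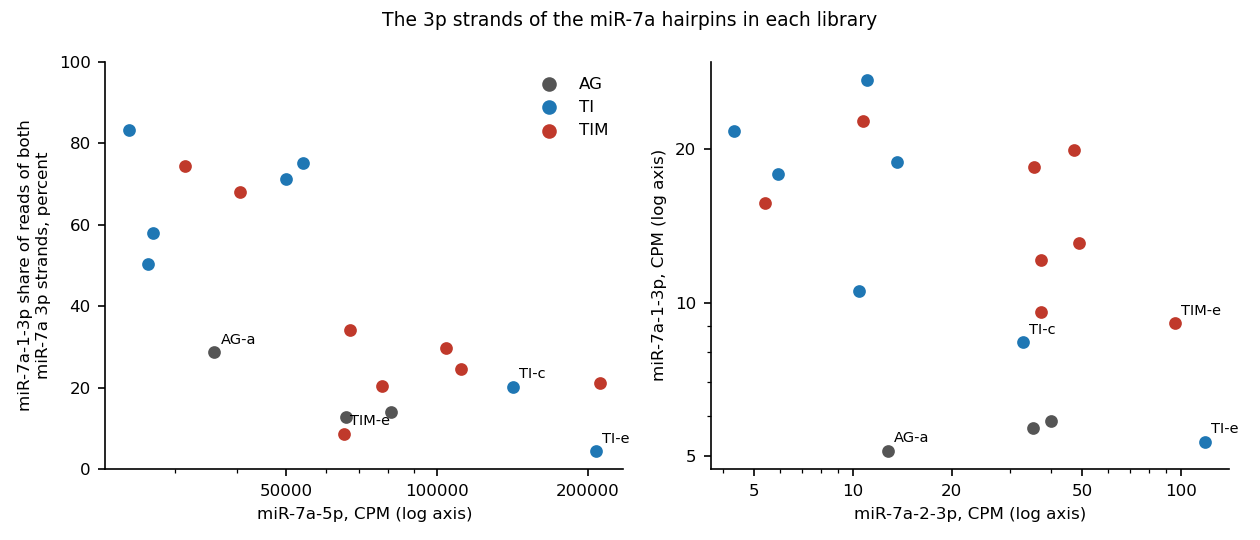
Left, the share of miR-7a-1-3p among the reads of both miR-7a 3p strands (percent) against miR-7a-5p (CPM, log axis); right, miR-7a-1-3p against miR-7a-2-3p (CPM, log axes). Each point is a library, grey for AG, blue for TI and red for TIM; the share was 83.3% in TI-d, the library with the least miR-7a-5p, and 4.32% in TI-e, a library with among the most.

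Across the 18 libraries, log2(CPM + 1) of miR-7a-5p went with that of miR-7b-5p (Pearson's r = 0.91, Spearman's rho = 0.86) and of miR-7a-2-3p (r = 0.80, rho = 0.78), whereas with that of miR-7a-1-3p r was -0.36 and rho -0.37. These are descriptions over libraries that share a scaling factor within each point, and no p-value is given. Without the 2 libraries farthest from the median of miR-7a-5p, r with miR-7b-5p was 0.86, with miR-7a-2-3p 0.75 and with miR-7a-1-3p -0.29. In TI alone, r between miR-7a-5p and miR-7b-5p was 0.93, and in TIM 0.90. For miR-7a-1-3p it was -0.55 over the 15 tumors, -0.29 in TIM and -0.73 in TI, where it turned to 0.40 without the 2 farthest libraries. For miR-7a-2-3p the corresponding r was 0.86 in TI and 0.69 in TIM, and the former dropped to -0.01 without the 2 farthest TI libraries, so that it rests on these. miR-375-3p went with miR-7a-5p at r = 0.52 (rho = 0.62) over 18 libraries and with miR-7a-2-3p at r = 0.65 (rho = 0.75). Among the 15 tumors these were 0.59 and 0.67. Without the 2 libraries farthest from the median of miR-7a-5p, its r with miR-375-3p was 0.38 both over all libraries and among the tumors.

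Outside the members, the miRNAs most like miR-7a-5p over the 18 libraries, among 395 with a mean of at least 10 CPM, were miR-92b-3p (r = 0.66), miR-212-5p (0.63), miR-129-1-3p (0.62), miR-679-5p (0.58) and miR-129-5p (0.56). Those most like miR-375-3p were miR-299a-3p (0.65), miR-125b-2-3p (0.61), let-7d-3p (0.59), miR-411-5p (0.59) and miR-195a-3p (0.59). All of these were lower than the r of 0.91 between the 5p strands of miR-7. Over the 15 tumors alone, miR-92b-3p came first for both, with r = 0.76 to miR-7a-5p and 0.77 to miR-375-3p. It was followed by miR-495-3p (0.68) and miR-679-5p (0.67) for miR-7a-5p, and by miR-485-3p (0.77) and miR-871-3p (0.72) for miR-375-3p.

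Differences between groups came from a limma model of log2(CPM + 1) for the 726 miRNAs that at least 3 libraries held at 1 CPM or more, with p-values adjusted over all of them by Benjamini-Hochberg. All 5 members passed this filter. For TI against AG, 1 of the 5 members (miR-7a-1-3p, higher) had an adjusted p below 0.05, while 55.8% of all miRNAs did. For TIM against AG it was again miR-7a-1-3p, higher, 1 of 5 against 51.4% of all miRNAs. For TIM against TI, limma, edgeR and DESeq2 called 0 of 5, limma also at an unadjusted p, against 5.23% of all miRNAs with limma. Since the members were picked with these values known, nothing is read from their counts. The median log2 fold change of the members was -0.29, 0.20 and 0.26 in the 3 comparisons, beside -0.01, 0.18 and 0.06 for all 726 miRNAs. The call of miR-7a-1-3p was lost, with 2 AG libraries remaining, without any of AG-a, AG-b or AG-c in both comparisons, and for TI also without the TMM factor, though its fold change stayed above 0.87 on the log2 scale in all alternatives.

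**Figure D4:**
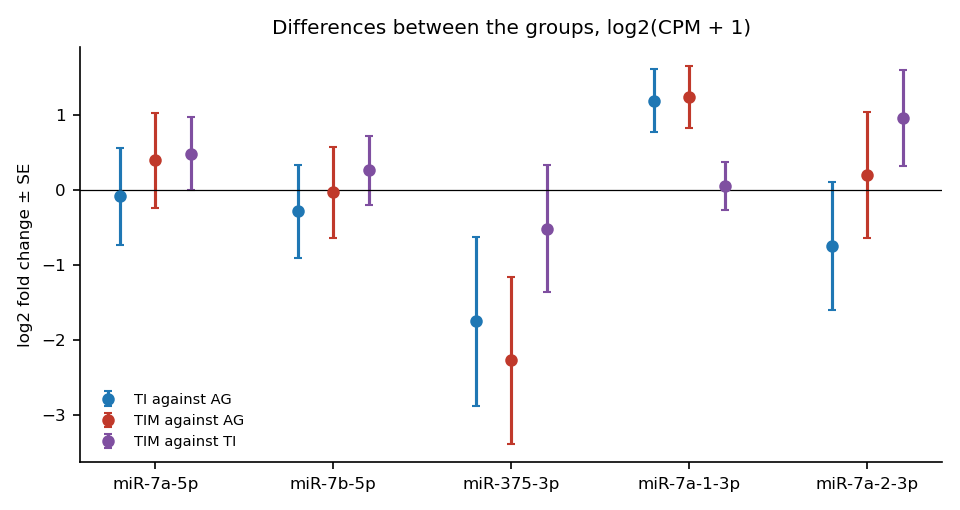
log2 fold change of the 5 members in 3 comparisons, from limma on log2(CPM + 1), with error bars of 1 SE (3 AG, 7 TI and 8 TIM libraries). miR-7a-1-3p lay at 1.18 and 1.23 against AG and miR-375-3p at -1.75 and -2.27, while miR-7a-5p and miR-7b-5p lay within 1 SE of 0 in all comparisons.

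The small differences depended on the scaling. When miR-148a-3p was left out of the library totals, the median of all miRNAs for TI against AG moved from -0.01 to 0.50. The deposited TMM factors, which already correct for composition, were kept in this variant. Libraries rich in miR-148a-3p may thus be corrected for it more than once, and signs under this variant are not read as results. With median ratio scaling the median was 0.0002. Without miR-148a-3p in the totals, miR-7a-5p stood at 0.65 and miR-7b-5p at 0.45, both near the median of 0.50. For TIM against TI the median moved to 0.49 without the TMM factor and to -0.30 without miR-148a-3p, and miR-7a-5p then stood at 1.04 and -0.01. miR-375-3p remained lower and miR-7a-1-3p higher in both tumor types than in AG under each scaling tried.

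The remaining strands of these hairpins were near the limit of detection. miR-7b-3p had 2 to 34 reads in each library, or 0.0925 to 1.82 CPM, and did not pass with limma in any of the 3 comparisons, with fold changes of 0.31 ± 0.22 for TI against AG and 0.49 ± 0.22 for TIM against AG on the log2 scale. For TIM against AG, DESeq2 called it higher and its unadjusted p with limma was below 0.05, whereas edgeR did not call it. miR-375-5p had 0 reads in AG, where up to 0.140 CPM would remain undetected, and at most 3 reads in a tumor library, which left it below the filter.

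Other miRNAs that are enriched in endocrine and neuroendocrine cells were set against AG as well, and several had large errors. The list was drawn up with earlier results of these data known, so nothing is read from its counts. This list held 13 miRNAs, all tested, namely the miR-200 family, the miR-183/96/182 cluster, the miR-132/212 cluster, miR-129-5p, miR-184-3p and miR-204-5p. For TI against AG limma called 1 of 13 lower and 0 higher, also at an unadjusted p, beside 29.3% of all miRNAs that fell and 26.4% that rose. edgeR gave the same counts, and DESeq2 1 lower and 1 higher. The limma call was miR-204-5p, an islet and eye miRNA, which fell by 5.14 ± 1.24 on the log2 scale (adjusted p = 0.0022), from 72.1, 150 and 154 CPM in AG to a median of 0.878 CPM in TI. For TIM against AG, limma again called 1 of 13 lower and 0 higher, also at an unadjusted p, beside 25.9% and 25.5% of all miRNAs, whereas edgeR called none and DESeq2 0 lower and 1 higher. The limma call was miR-204-5p with -3.05 ± 1.22 (adjusted p = 0.0438), but it was lost in 16 of 22 alternatives, among them without any single AG library, with edgeR and with DESeq2. Among TIM, miR-204-5p ranged up to 152 CPM.

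By mean CPM over all 18 libraries, the first 3 of the endocrine list were miR-129-5p, miR-182-5p and miR-183-5p, none of which passed against AG. The means of the latter pair rest on a TIM library with 7806 and 7019 CPM, and in TI miR-132-3p was higher, with a mean of 662 CPM against 128 and 63.8 CPM. miR-129-5p, a neuronal and endocrine miRNA, had log2 fold changes of 0.54 ± 1.04 in TI and 1.02 ± 1.02 in TIM. miR-182-5p stood at -2.41 ± 1.72 and -1.05 ± 1.69, and miR-183-5p, from the same cluster, at -1.73 ± 1.70 and 0.49 ± 1.66. Their large errors came with wide ranges within a group, such as 6.79 to 7806 CPM for miR-182-5p in TIM. For TIM against TI, limma called 0 of 13, beside 5.23% of all miRNAs, with 1 higher and 2 lower at an unadjusted p below 0.05. edgeR called none, and DESeq2 called 4 higher and 3 lower. The median log2 fold change of the list was 0.18 for TI and -0.38 for TIM against AG, the latter 0.75 with edgeR and 0.74 with DESeq2.

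The neuron-enriched miRNAs were mostly higher in the tumors. Of 10 listed and tested, limma called 8 higher and 0 lower in TI, and 8 higher and 0 lower in TIM against AG. Of all miRNAs, 26.4% were called higher in TI and 25.5% in TIM, and 29.3% and 25.9% lower. The median log2 fold changes of the list were 2.42 and 2.22. Going the other way, miR-383-5p stood at -2.20 ± 1.05 in TI and -0.62 ± 1.03 in TIM, and passed in neither. This list, too, was drawn up with earlier results of these data known. The most abundant were miR-218-5p, a miRNA of motor neurons, with 3.53 ± 0.35 in TI and 3.11 ± 0.34 in TIM, and miR-9-5p, known from neural progenitors, with 3.82 ± 0.41 and 4.16 ± 0.41 (limma, all 4 passed). miR-128-3p stood at 0.98 ± 0.43 in TI, which did not pass, and rose by 1.88 ± 0.43 in TIM. Over all alternatives 6 to 9 rose in TI and 6 to 8 in TIM, with 6 in each when AG-a was left out. In 20 of 21 alternatives for TI, none was called lower. For TIM against TI limma called 0 of 10, beside 5.23% of all miRNAs. At an unadjusted p below 0.05 limma gave 1 higher and 1 lower, while edgeR called none and DESeq2 1. Whether the endocrine and neuronal lists differ from each other was not tested.

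**Figure D5:**
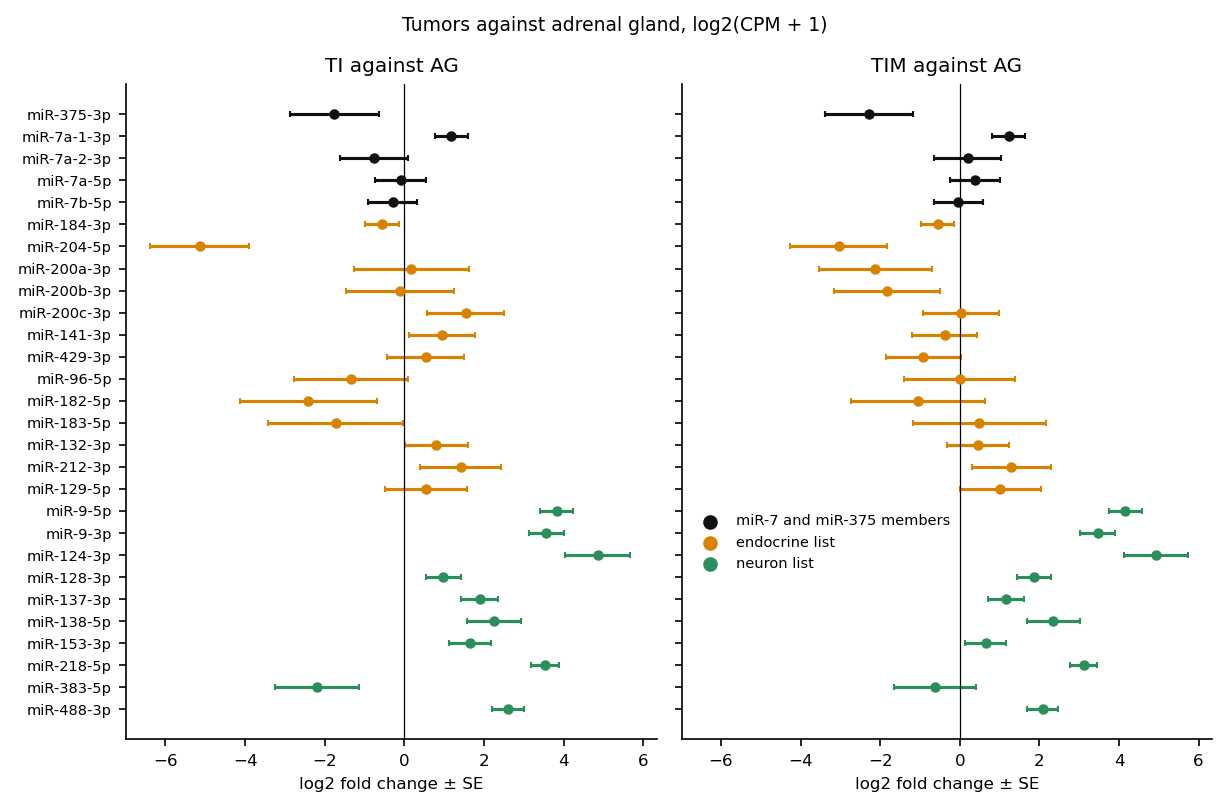
log2 fold change against AG (1 SE error bars, limma on log2(CPM + 1)) of the 5 members (black), 13 other miRNAs enriched in endocrine cells (orange) and 10 neuron-enriched miRNAs (green), TI on the left and TIM on the right. In each tumor type limma called 8 of 10 neuronal miRNAs higher, beside 26.4% of all miRNAs in TI and 25.5% in TIM. Of the endocrine list it called 1 of 13, miR-204-5p, lower, beside 29.3% and 25.9%.

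The AG libraries also held more of the miRNAs of several other tissues, and their part in the differences of the members was not tested. Against AG, limma called as lower in TI and TIM 2 and 2 of 3 exocrine pancreas markers (miR-216b-5p and miR-217-5p), 4 and 4 of 4 of liver and intestine, 3 and 4 of 5 of leukocytes, 1 and 2 of 2 of smooth muscle, and 0 and 1 of 2 of stratified epithelium (miR-203-3p). Of all 726 miRNAs, limma called 29.3% lower and 26.4% higher in TI, and 25.9% lower and 25.5% higher in TIM. Lists of 2 or 3 markers are too short to set against these shares. edgeR called none of the exocrine pancreas markers. In TI, the smooth muscle call was absent with edgeR and DESeq2 and in 11 of 21 alternatives in all. limma called no marker as higher, also without adjustment, edgeR none, and DESeq2 miR-205-5p in TI alone. None of these tests called any of the 3 erythroid and 3 skeletal muscle markers in either direction against AG. The sum of the liver and intestine markers (miR-122-5p, miR-192-5p, miR-194-5p and miR-215-5p) was 3598 to 7068 CPM in AG, 294 to 1188 in TI and 382 to 1077 in TIM. That of the leukocyte markers was 427 to 620 CPM in AG, 53.5 to 348 in TI and 69.5 to 215 in TIM. For TIM against TI, limma called 1 of all these markers, beside 5.23% of all miRNAs. It was miR-203-3p, with a log2 fold change of -1.53 ± 0.32 (adjusted p = 0.0077). DESeq2 called lower 2 of 2 of stratified epithelium and 1 of 3 of skeletal muscle.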

How the data were processed

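Small RNA had been sequenced for 3 AG, 7 TI and 8 TIM samples. The labels give TRIzol for the extraction of about 30 mg of tissue, while the study's methods name the AllPrep kit for tissue. Per the submitters' processing notes, the authors used cutadapt 2.8, Bowtie2 2.3.5.1 against mm10, featureCounts 2.0.0 and edgeR 3.40. How reads that match several loci were counted is not given in the sources used here. The authors deposited 1 signal value for each of 1966 mature miRNAs and 18 libraries, namely reads divided by effective (TMM) library size. The deposited columns of fold changes, p-values and FDR of the authors' own comparisons were not used.

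In each library all values were whole multiples of what 1 read is worth (tolerance 0.01 reads, 100% of values), so reads and depths were recovered. Depth was 21644743 to 23332704 reads in AG, 11802837 to 21268124 in TI and 11641696 to 23435621 in TIM. Group differences were fitted with limma 3.58.1 (R 4.3.3) on log2(CPM + 1), with all 3 groups in 1 model, on the 726 miRNAs that reached 1 CPM in 3 or more libraries, and called at a Benjamini-Hochberg adjusted p below 0.05. SE are those of this fit. The fold scale understates changes of low miRNAs. Alternatives were pseudocounts of 0.1 and 5, no filter, at least 10 CPM, no TMM factor, median ratio scaling, totals without miR-148a-3p (with the deposited TMM factors kept), only 2 groups in the model, edgeR 4.0.16 and DESeq2 1.42.0 on the recovered reads, and leaving out each library. The procedure was tested on simulated data. The study's methods treat individual mice as the biological replicates of its transgenic experiments, but the labels tie no library to a mouse. The paper reports more tumors than animals for the IGF2BP1/MYCN mice, so some TIM libraries may share an animal. The fit treats all libraries as independent. The p-values measure the spread between samples.

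The members and lists were chosen with earlier results of these data known. Named were the 5 members, the 5 miRNAs (mean of at least 10 CPM) with the highest Pearson r to miR-7a-5p and to miR-375-3p over 18 libraries and the 3 highest over 15 tumors, the 3 most abundant of the endocrine and of the neuronal list, and any counted 5 or fewer. Of the 1966 names, 1675 matched a RefSeq mature sequence (GRCm38.p6, the build of mm10). Genes around hairpins are from GRCm39 and were matched by hairpin name, with no coordinates converted. Python 3.11.15 was used for the remaining steps.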

Additional observations from a re-analysis of the deposited data

Results flagged for a closer look

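In 2 tumor libraries members stood far from the rest of their group, judged by the gap of the extreme library to its nearest neighbour as a share of the group's range (Dixon's test at the 95% level). In TI the library was TI-e. For miR-375-3p in CPM the gap was 0.865 of the range, for miR-7a-2-3p 0.748, for miR-7b-5p 0.743, and for the number of miR-7a-5p reads per miR-7a-1-3p read 0.582, with TI-e the highest in each case. TI-e was also the tumor library with the lowest share of miR-148a-3p reads (2.29%), and it held the exocrine pancreas miRNAs at 74.6 CPM. In TIM the library was TIM-g, with a gap of 0.553 for miR-7a-5p and of 0.549 for the sum of miR-7a-5p and miR-7b-5p. Chance flags about 1 in 20 such groups. The members were chosen with these levels known and the measures depend on each other, so nothing is read from the number of flags. On the log2 scale no member was flagged.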

How the results depend on the processing

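No paired analysis was possible because the suffixes of the columns match no replicate number of the labels. Against AG, the number of miRNAs called stayed within 1.5 times its reported value (405 in TI, 373 in TIM) under each alternative, except in TIM without AG-a (242). Leaving out 1 library gave 310 to 432 calls for TI and 242 to 381 for TIM. The 38 calls between TIM and TI were less stable. Their number was 21 with a pseudocount of 5, 17 with a filter at 10 CPM, 23 with 2 groups in the model, 155 without the TMM factor, 105 without miR-148a-3p in the totals, 3 with edgeR, 123 with DESeq2, 79 without TI-e and TIM-d, and 24 to 72 when 1 library was left out. It left the 1.5-fold range without TI-a, TI-b or TI-f (24 each), TI-d (63), TI-g (72) and TIM-d (66). The share of calls that were higher moved from 47.4% to 66.3% without miR-148a-3p for TI against AG, and for TIM against TI from 65.8% to 89.0% without the TMM factor, 28.6% without miR-148a-3p and 50.9% with median ratio scaling; the cause was not tested. Leaving out single libraries, miR-375-3p stayed lower than in AG (-2.31 to -1.42 for TI, -2.83 to -1.80 for TIM) and miR-7a-1-3p higher (1.03 to 1.39 and 1.14 to 1.32). Of the 5 miRNAs most like miR-7a-5p, 3 were kept by Spearman's rho and 3 without the TMM factor; for miR-375-3p it was 3 and 2. Depth limits miR-7b-3p and miR-375-5p alone. The small number of AG libraries limits each comparison with AG. AG-a was the lowest of them for all 5 members, and the fold range within AG was widest for miR-375-3p and miR-7a-2-3p. Without AG-a the log2 fold change for TI against AG was -0.43 for miR-7a-5p and -0.60 for miR-7b-5p. The columns do not tell tumor sites or zygosity.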

Other observations

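The miRNAs most like the 3p strands of miR-7a were looked up after their levels had been seen. For miR-7a-1-3p over 18 libraries they were miR-124-5p (r = 0.87), miR-18a-5p (0.85), miR-181c-3p (0.85), miR-17-5p (0.85) and miR-1197-3p (0.85). Over the 15 tumors they were miR-17-5p (0.81), miR-20a-5p (0.80) and miR-124-5p (0.79). miR-17-5p, miR-18a-5p and miR-20a-5p belong to the miR-17/92 cluster, a known MYC target, and miR-124-5p is the passenger strand of the neuronal miR-124. For miR-7a-2-3p over 18 libraries they were miR-212-5p (0.68), miR-132-5p (0.67), miR-129-5p (0.66), miR-125b-2-3p (0.63) and miR-92b-3p (0.61), of which miR-212-5p, miR-129-5p and miR-92b-3p were also among the 5 most like miR-7a-5p. These are descriptions over libraries that share their scaling, without a test.

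For each miR-7b-3p read there were 24318 to 48830 miR-7b-5p reads in AG, 6852 to 22394 in TI and 2497 to 27955 in TIM. The 3p strand had no more than 34 reads in a library and as few as 2 in AG, so that counting error alone is large.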
